A study of Mus musculus with 4 samples.

Results

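The comparison described here set Cripto KO cells against WT cells in F/A culture, across all 15462 genes of the deposited normalized table, out of 37620 genes in the raw count table. Each side was 1 library of total RNA, so no test was possible and no p-value is given. Both lines were R1 mouse embryonic stem cells (mESCs) of the 129/Sv strain. For F/A, cells of either genotype were plated sparsely in N2B27, a serum-free medium, with Activin A at 20 ng/ml and bFGF, and were collected at 6 days with the cell type label EpiSC (epiblast stem cell). The same pair of lines kept in serum/LIF, labelled ESC, gave the remaining 2 of the 4 libraries, and these share no library with the F/A pair. The study describes a pair of clonal knockout lines. Which clone was sequenced and which part of the gene the knockout removes are not given in the sources used here. The F/A libraries held 15230856 counts in WT and 15740587 in Cripto KO.

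Cripto, the protein of the gene Tdgf1, is a small membrane-anchored coreceptor that lets Nodal signal through activin receptors and SMAD2 and SMAD3. Activin uses the same receptors but does not need Cripto, and it is the usual supplement for keeping mouse epiblast stem cells. In the embryo, Nodal signalling patterns the epiblast and directs the anterior primitive streak and endoderm, while BMP signalling acts on posterior and extraembryonic fates.

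Tdgf1 was counted 1572 times in WT and 86 times in Cripto KO in F/A, and 18714 and 945 times in serum/LIF. The normalized value was 17.8-fold lower in F/A Cripto KO, with a 95% counting interval of 13.1 to 24.7, and the log2 ratio was -4.15 in F/A and -4.13 in serum/LIF. The labels and the targeted gene therefore point the same way in both cultures. All but 3 of the nonzero counts of the F/A Cripto KO library were even, against 53.1% to 53.6% odd counts in the other libraries, so its counts were halved for every counting interval and every count minimum, while counts are quoted as deposited. Intervals cover counting error only and say nothing of variation between cultures.

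Several facts of the libraries bear on what follows. The log2 ratio in F/A declined with transcript length across 9375 well-counted genes, from a median of 0.17 in the shortest eighth to -0.30 in the longest, whereas in serum/LIF the median went from -0.06 to 0.09. Spearman's rho with length was -0.35 in F/A and 0.19 in serum/LIF, a description across genes of the same libraries. Genes of the Y chromosome summed to 3597 counts in WT and 928 in Cripto KO in F/A, a ratio of library shares of 0.2496 (0.226 to 0.275), and to 3148 and 802 in serum/LIF, a ratio of 0.271 (0.251 to 0.293). The medians of the 19 autosomes stayed between -0.10 and 0.12. The EpiSC label was checked against its markers: Fgf5 was counted 2206 times in WT F/A and 3 times in WT serum/LIF, and T 8748 and 13 times, but Pou5f1 was counted 1810 times in WT F/A against 26857 in WT serum/LIF and Nanog 259 against 11633. In bulk RNA, fewer cells of a type and less RNA per cell cannot be told apart.

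**Figure D1:**
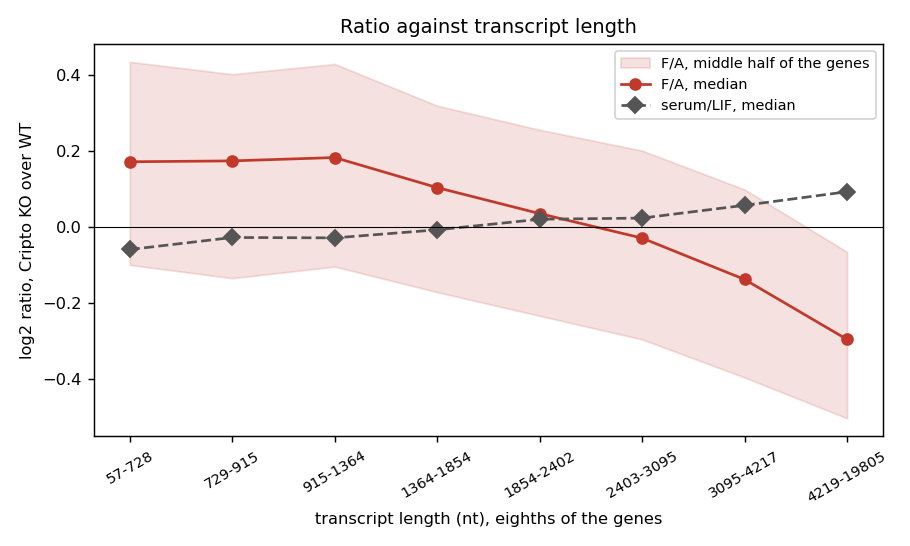
Median log2 ratio of Cripto KO over WT (vertical axis) in eighths of the genes by transcript length in nucleotides (horizontal axis), with the interquartile range of the F/A genes shaded. The F/A medians go from 0.17 to -0.30 and the serum/LIF medians from -0.06 to 0.09.

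A gene was called when its normalized values differed at least 2-fold and the counting interval of the ratio lay wholly on that side of 1. In F/A, 491 genes (3.18% of all genes of the table) were called higher in Cripto KO and 552 (3.57%) lower, 1043 (6.75%) in all, and 89.7% of the genes lay within 2-fold. The shares of 3.18% and 3.57% are the background for every count of calls in a list below. Scaling the raw counts by library total (CPM) instead of by quantiles gave 427 genes higher and 751 lower, so that 36.2% of the calls were higher against 47.1% with the deposited values. In serum/LIF, 269 genes (1.74%) were called higher and 290 (1.88%) lower. Some genes were called in both cultures. Of these, 22 were higher in both, 4.48% of the F/A calls and 8.18% of the serum/LIF calls, against 1.74% and 3.18% of all genes. Another 20 were called lower in both, 3.62% and 6.90%, against 1.88% and 3.57% of all genes. A further 39 genes were called in opposite directions. Of the 491 genes higher in F/A, 14 were called lower in serum/LIF, against 1.88% of all genes. Of the 552 genes lower in F/A, 25 were called higher in serum/LIF, against 1.74% of all genes. Genes lower in F/A were thus called in the opposite direction more often than in the same direction. Large changes were found on both sides, with 153 of the higher genes and 92 of the lower genes past 4-fold. The higher genes rested on fewer counts, since 267 of the 491 had under 50 counts in their higher library against 136 of the 552 lower genes. After the running median over transcript length was subtracted, 411 of the higher and 463 of the lower genes were still called. Genes are named below by a rule of size within the calls and lists, and H19, Nodal, Pmepa1, Ankrd1, Id1, Id3, Id4, Smad6, Gata2, Gdf6, Plac1, Hoxc13, Rtl1, Dio3, Evl and Begain, outside that rule, were chosen after their values were seen. Among 633 long intergenic noncoding RNAs, 7.74% were called lower and 3.32% higher.

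**Figure D2:**
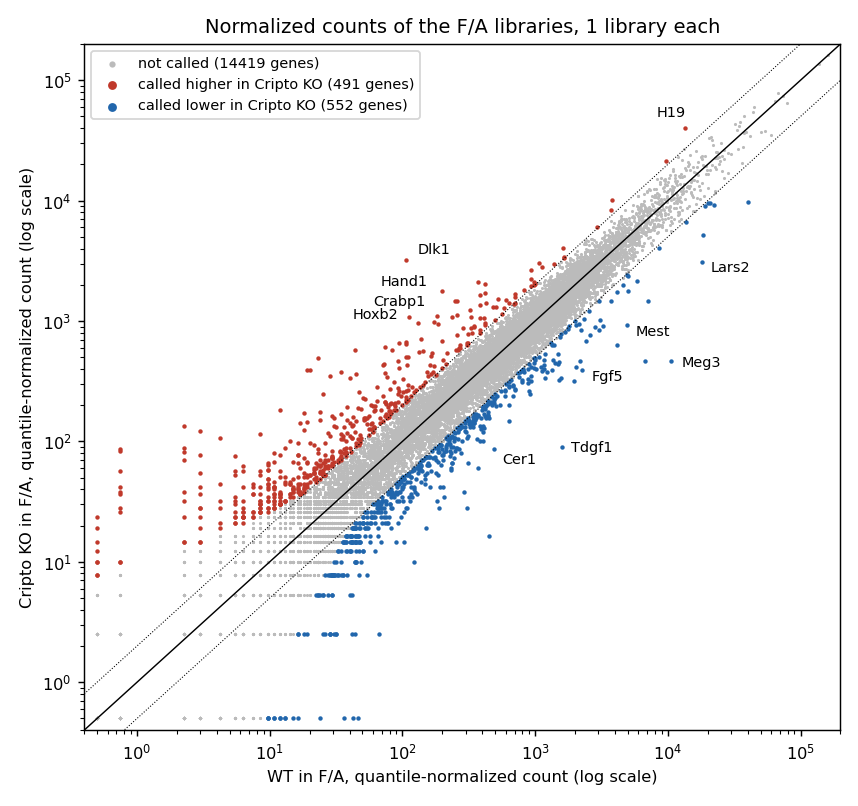
Quantile-normalized count of each gene in the WT F/A library (horizontal axis, log scale) and in the Cripto KO F/A library (vertical axis, log scale), with 0 drawn at 0.5 and dotted lines at 2-fold. The 491 red genes were called higher and the 552 blue genes lower, and the ratios of the labelled Dlk1 and Meg3 are 30-fold higher and 22.9-fold lower.

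Among called genes with at least 200 counts, the largest ratios in both directions belonged to 1 imprinted domain. The Dlk1-Dio3 domain on chromosome 12 carries protein-coding genes expressed from the paternal copy (Dlk1, Rtl1, Dio3) and noncoding RNAs expressed from the maternal copy (Meg3, Rian, Mirg), and methylation of CG dinucleotides between Dlk1 and Meg3 normally separates the copies. Dlk1, a Notch-like membrane protein of fetal progenitors, was counted 105 times in WT and 3098 times in Cripto KO in F/A, and 137 and 124 times in serum/LIF. It was 30-fold (24.6 to 36.9) higher in F/A, the highest ratio of that set. Meg3 was counted 9569 times in WT and 472 times in Cripto KO, and 5190 and 3947 times in serum/LIF. Its normalized value was 22.9-fold (20.1 to 26.1) lower in F/A. Of the 4 libraries, F/A Cripto KO was the highest for Dlk1 and the lowest for Meg3.

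The windows from 250 bases before to 50 after the annotated start of these genes, at chr12:110690783-110691082 and chr12:110778961-110779260 of NCBIM37 (mm9), both on the plus strand, are shown because their genes lie next to each other and were called in opposite directions. Capitals mark CG dinucleotides. There are 9 in the Dlk1 window and 13 in the Meg3 window, against a median of 18 over 15402 windows of the same kind, of which 76.1% held at least 9 and 66.0% at least 13. Methylation was not measured.
Dlk1: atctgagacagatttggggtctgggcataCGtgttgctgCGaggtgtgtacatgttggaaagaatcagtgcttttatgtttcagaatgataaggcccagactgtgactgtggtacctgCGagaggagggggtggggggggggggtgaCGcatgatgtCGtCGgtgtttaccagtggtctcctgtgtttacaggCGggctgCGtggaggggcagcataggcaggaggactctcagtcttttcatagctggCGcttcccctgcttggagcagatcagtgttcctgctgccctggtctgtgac
Meg3: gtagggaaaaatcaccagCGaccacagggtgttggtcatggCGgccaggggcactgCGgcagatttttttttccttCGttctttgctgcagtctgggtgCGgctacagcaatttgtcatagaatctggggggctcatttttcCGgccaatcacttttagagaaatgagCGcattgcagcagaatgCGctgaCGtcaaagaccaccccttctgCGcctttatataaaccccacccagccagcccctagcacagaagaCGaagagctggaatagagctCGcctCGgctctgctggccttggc

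The noncoding RNAs downstream of Meg3, transcribed from the same strand, had low ratios as well. Rian, the host of a snoRNA cluster, was counted 6330 times in WT and 472 times in Cripto KO, 14.6-fold (12.8 to 16.7) lower, and 4911 and 3816 times in serum/LIF. Mirg, the host of a microRNA cluster, was counted 300 and 24 times, 11.04-fold (6.22 to 21.6) lower, and 293 and 191 times in serum/LIF. The snoRNA genes of the domain summed to 46 counts in WT and 2 in Cripto KO in F/A, and to 22 and 30 in serum/LIF. Gm17639, which lies within Meg3 on the other strand, was counted 429 and 14 times, but its reads cannot be told apart from those of Meg3 without the strand setting of the counting. In contrast, the paternally expressed Rtl1 was counted 48 and 34 times, a ratio of 0.761 (0.410 to 1.35). Dio3, the enzyme that inactivates thyroid hormone at the far end of the domain, was counted 86 and 68 times, a ratio of 0.823 (0.537 to 1.24). The 8 other measured genes within 1 Mb on the Dlk1 side, from Evl to Begain, had ratios between 0.999 and 1.73, and 0 of them were called.

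**Figure D3:**
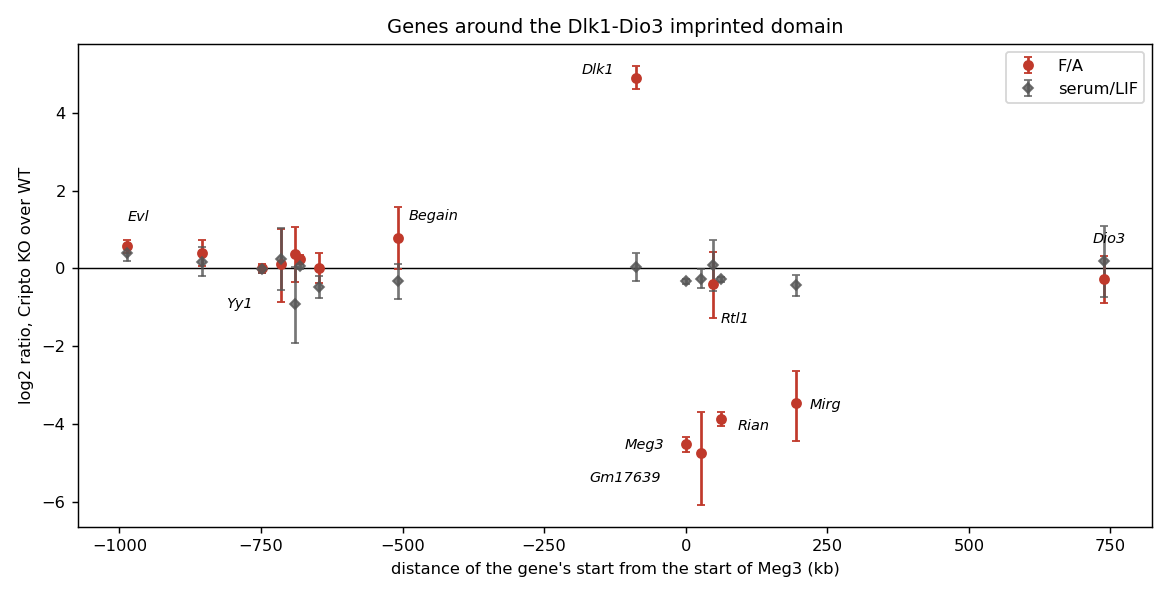
Log2 ratio of Cripto KO over WT (vertical axis) for genes around the Dlk1-Dio3 domain by the distance of their start from that of Meg3 in kilobases (horizontal axis), with 95% counting intervals. In F/A (circles) Dlk1 lies at 4.91 and Meg3, Gm17639, Rian and Mirg between -3.46 and -4.75, while the serum/LIF values (diamonds) of these 5 genes lie between -0.44 and 0.04.

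A pair of abundant nuclear noncoding RNAs outside this domain had low ratios too. Malat1, chosen after its values were seen, was counted 34683 and 9768 times, 4.10-fold (3.98 to 4.23) lower, and 13088 and 17001 times in serum/LIF. Neat1, chosen in the same way, was counted 2534 and 770 times, 3.35-fold (3.01 to 3.74) lower, and 5316 and 9158 times in serum/LIF. Both were called lower in F/A, whereas H19, a noncoding RNA as well, was called higher. The part of nuclear RNA recovery in the ratios of Meg3, Rian and Mirg was not tested.

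Of the other imprinted genes, Mest was counted 4735 and 920 times in F/A and 688 and 84 times in serum/LIF. It was 5.35-fold (4.86 to 5.90) lower in F/A and was called lower in both cultures. H19, the maternally expressed noncoding RNA beside Igf2, was counted 12078 and 36622 times, 2.95-fold (2.88 to 3.02) higher, and 408 and 922 times in serum/LIF. It was called higher in both cultures. Cdkn1c, a cell-cycle inhibitor, was counted 1588 and 3956 times, 2.53-fold (2.37 to 2.70) higher. In all, 5 of 25 measured imprinted genes were called higher and 5 lower, 20% each, against 3.18% and 3.57% of all genes. The median log2 ratio was 0.39 against 0 for all genes, and 0.18 after the length trend was subtracted.

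Activin was in the medium of both libraries. Of 17 measured targets of Nodal and Activin, 8 were called lower and 1 higher in Cripto KO, against 3.57% and 3.18% of all genes. By ratio alone 14 of the 17 lay below 1, and the median log2 ratio was -0.55. Lhx1, a homeobox factor of the anterior streak and the organizer, was counted 1909 times in WT and 322 times in Cripto KO. It was 6.14-fold (5.23 to 7.26) lower. Cer1, a secreted antagonist of Nodal, BMP and Wnt, was counted 467 and 82 times, 5.68-fold (4.12 to 8.01) lower. Eomes, a T-box factor of streak, endoderm and trophoblast, was counted 1963 and 422 times, 4.88-fold (4.23 to 5.65) lower. These 3 genes and the organizer factor Gsc, counted 227 and 54 times and 3.98-fold (2.67 to 6.18) lower, are low in serum/LIF, where no library of either genotype exceeded 86 counts. Eomes, with 86 and 27 counts there, was called lower in serum/LIF too, at a log2 ratio of -1.50.

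Mixl1, a homeobox factor of mesendoderm, was counted 121 and 36 times, 3.08-fold (1.87 to 5.36) lower. The SMAD inhibitor Pmepa1 was counted 309 and 146 times, 2.17-fold (1.68 to 2.84) lower. The called gene that went the other way, Ankrd1, a muscle ankyrin repeat protein, was counted 79 and 204 times, 2.51-fold (1.85 to 3.41) higher.

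The feedback antagonists of Nodal, Lefty1 and Lefty2, were chosen after their values were seen because the cultures differ. Lefty1 was counted 1200 and 380 times in F/A, 3.24-fold (2.78 to 3.80) lower, and 684 and 2330 times in serum/LIF, where it was called higher. Lefty2 was counted 571 and 238 times in F/A, 2.48-fold (2.03 to 3.05) lower, and 442 and 1224 times in serum/LIF, again called higher. The difference between the cultures has no test with 1 library in each. Nodal itself, with 721 and 572 counts in F/A, had a ratio of 0.769 (0.668 to 0.883) and was not called. Among 11 measured pathway components, only Tdgf1 was called in F/A. Cfc1, a relative of Cripto in the same coreceptor family, was counted 210 and 390 times, a ratio of 1.79 (1.47 to 2.19). The receptor Acvr1b had a ratio of 0.688 (0.608 to 0.777) and the transducer Smad2 one of 0.711 (0.634 to 0.795).

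Targets of BMP signalling lay on the other side. Of 15 measured BMP targets, 11 were called higher and 0 lower, with a median log2 ratio of 1.31 in F/A and 0.08 in serum/LIF. Id2, an inhibitor of basic helix-loop-helix factors and a direct BMP target, was counted 403 times in WT and 1676 times in Cripto KO in F/A, and 291 and 921 times in serum/LIF. It was 4.11-fold (3.64 to 4.64) higher in F/A and was called higher in both cultures. Msx1 and Msx2, homeobox factors of embryonic margins, were counted 180 and 944 times and 131 and 562 times. Their ratios were 5.11 (4.30 to 6.11) and 4.18 (3.38 to 5.18), and in serum/LIF neither exceeded 17 counts. Hand1, a factor of lateral plate mesoderm, heart and trophoblast, was counted 196 and 1730 times, 8.88-fold (7.59 to 10.4) higher, with 1 and 2 counts in serum/LIF. The inhibitors Id1 and Id3 were counted 922 and 2154 times and 1106 and 2672 times, 2.37-fold (2.17 to 2.59) and 2.49-fold (2.29 to 2.70) higher. Smad6, a feedback inhibitor of BMP signalling, was counted 303 and 780 times, 2.50-fold (2.15 to 2.91) higher. In serum/LIF, 2 of the 15 were called higher, Id2 and Id4. Gata3, counted 238 and 252 times, had a ratio of 1.04 (0.834 to 1.30) and was not called.

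The windows of Id2 (chr12:25780908-25781207, minus strand) and Hand1 (chr11:57646271-57646570, minus strand) are shown for the palindrome GGCGCC, in capitals, a motif known from BMP response elements bound by SMAD1 and SMAD4. It was found in 1 place in the Id2 window and in 2 places in the Hand1 window. Of the 15 BMP targets measured, 7 windows held GGCGCC, against 19.1% of all 15402 windows, 19.8% of those of the genes called higher and 14.6% of those called lower. The motif reads the same on both strands and contains a CG. The windows of the 15 targets held a median of 24 CG dinucleotides, against 18 over all windows and 13 over those called higher. The part of CG content in the share with GGCGCC was not tested. This describes letters in 300 bases and no binding.
Id2: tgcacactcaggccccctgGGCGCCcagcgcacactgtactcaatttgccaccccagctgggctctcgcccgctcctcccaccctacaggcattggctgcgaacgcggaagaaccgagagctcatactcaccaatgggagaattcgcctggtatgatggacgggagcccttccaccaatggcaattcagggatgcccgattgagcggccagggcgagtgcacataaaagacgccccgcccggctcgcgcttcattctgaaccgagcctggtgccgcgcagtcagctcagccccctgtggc
Hand1: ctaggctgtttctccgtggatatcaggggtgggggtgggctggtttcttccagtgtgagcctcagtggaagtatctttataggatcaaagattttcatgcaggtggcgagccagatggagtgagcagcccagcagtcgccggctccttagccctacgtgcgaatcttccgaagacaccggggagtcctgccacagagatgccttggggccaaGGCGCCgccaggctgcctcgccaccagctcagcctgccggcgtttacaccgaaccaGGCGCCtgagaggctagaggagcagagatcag

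The BMP ligands and antagonists held fewer calls. Of 14 measured, 2 were called higher and 0 lower, with a median log2 ratio of 0.09. Bmp4 was counted 921 and 1882 times, 2.08-fold (1.89 to 2.28) higher. Chrd, the antagonist chordin, was counted 1052 and 598 times, a ratio of 0.554 (0.486 to 0.631), and was not called, and Bmp2 was counted 1872 and 1270 times, a ratio of 0.666 (0.608 to 0.729). The only other called ligand, Gdf6, rested on 11 and 34 counts. It reached the limit of 1 CPM, by which the normalized table was filtered, in F/A Cripto KO alone, so it had to be higher there.

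Lateral plate, cardiac and limb mesoderm genes were the cell type list with the most calls. Of 21 measured, 14 were called higher and 0 lower, with a median log2 ratio of 1.46. Among the 14, 1 reached the filter's limit of 1 CPM in F/A Cripto KO alone, so it had to be higher there. Of the other 20 measured genes, 13 were called higher. Hand2, a partner of Hand1 in heart and limb, was counted 81 times in WT and 584 times in Cripto KO, 6.96-fold (5.43 to 9.02) higher, and was at 0 in both serum/LIF libraries. Meis1 and Meis2, cofactors of Hox proteins, were counted 92 and 662 times and 371 and 1616 times. Their ratios were 7.07 (5.60 to 9.01) and 4.27 (3.77 to 4.84). Tnnt2, the cardiac troponin T, was counted 37 and 192 times, 5-fold (3.39 to 7.52) higher. Twist1, a mesenchymal factor, was counted 368 and 1050 times, 2.75-fold (2.40 to 3.15) higher.

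Several genes of the mesenchyme and of paraxial mesoderm were among the 15 with the highest ratios. Hapln1, a link protein of hyaluronan matrix, was counted 22 and 500 times, 21.2-fold (13.7 to 34.5) higher, and Meox1, a somite homeobox factor, 42 and 582 times, 13.1-fold (9.44 to 18.5) higher. Col3a1, a fibrillar collagen, was counted 72 and 610 times, 8.20-fold (6.32 to 10.8) higher. Over lists, 5 of 17 fibroblast and mesenchymal genes and 4 of 18 collagen genes were called higher, the latter with 1 called lower, and 4 of 15 mesenchymal transition genes were called higher and 0 lower. Among the 4 collagen genes called higher, 1 reached 1 CPM in F/A Cripto KO alone. Col1a1, the chain of type I collagen, was counted 504 and 1496 times, 2.90-fold (2.59 to 3.26) higher. Acta2, smooth muscle actin, was counted 2854 and 5906 times, 2.05-fold (1.95 to 2.16) higher. Snai2, a repressor of epithelial genes, counted 49 and 228 times, was 4.49-fold (3.18 to 6.41) higher. Markers of blood and endothelium gave 5 calls higher and 1 lower of 13. Among the 5, 1 reached 1 CPM in F/A Cripto KO alone. The 5 rested on few counts apart from Lmo2, which was counted 117 and 286 times, while Runx1 was counted 476 and 230 times, 2.16-fold (1.76 to 2.67) lower.

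**Figure D4:**
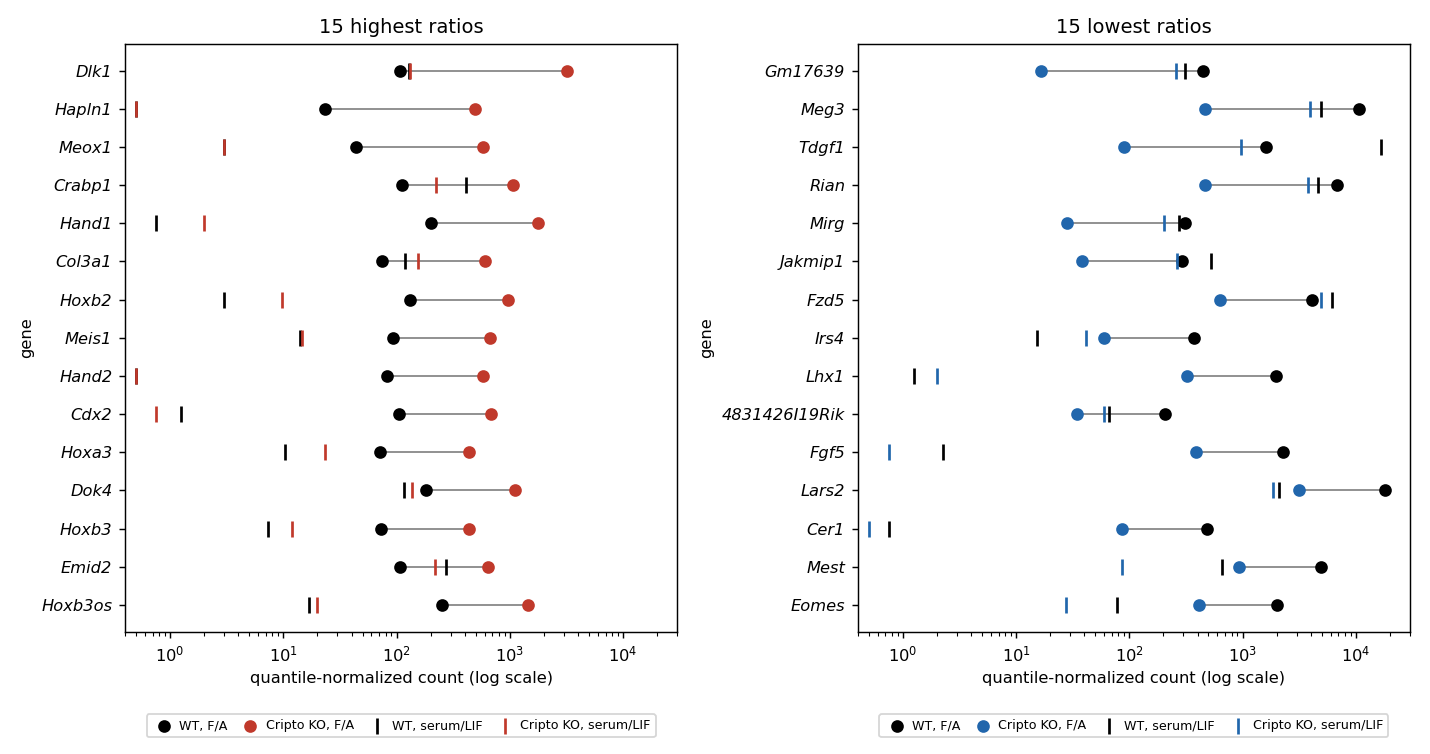
Quantile-normalized counts (horizontal axes, log scale, 0 drawn at 0.5) of the 15 genes with the highest and the 15 with the lowest F/A ratio among called genes with at least 200 counts, in the 4 libraries. Circles are the F/A libraries and ticks the serum/LIF libraries; Dlk1, at 107 and 3218 in F/A, and Gm17639, at 446 and 16.5, head their panels.

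Hox genes, which code for the factors of positional identity along the body axis, were mostly of low count in the other 3 libraries. Of 39 listed, 11 did not pass the filter of the normalized table, with at most 8 counts in F/A Cripto KO. Of the 28 that passed, 16 reached the filter's limit of 1 CPM in the F/A Cripto KO library alone, so that they had to be higher there. Of the 12 that reached it in another library, 11 were called higher in F/A and 0 lower, and 2 of the 28 were called in serum/LIF. The counts of the 28 summed to 671 in WT and 5762 in Cripto KO in F/A, and to 360 and 362 in serum/LIF. The 16 are part of these sums, so the F/A difference was fixed in part by the filter. Hoxb2 was counted 130 and 970 times, 7.40-fold (6.09 to 9.05) higher. Hoxb9 was counted 19 and 398 times in F/A, 19.4-fold (12.1 to 32.9) higher, and 60 and 48 times in serum/LIF, and Hoxd3 18 and 398 times, 20.4-fold (12.6 to 35.2) higher. The gene of the 12 not called, Hoxc13, had 3 and 6 counts. In 14 of the 28 genes the higher library held under 50 counts after halving, so those ratios have wide intervals, as for Hoxc8 with 2 and 134 counts, a ratio of 60.1 (16.004 to 507).

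Cdx2, a regulator of posterior Hox genes and of trophoblast, was counted 104 and 674 times in F/A, 6.37-fold (5.10 to 8.02) higher, and 2 and 1 times in serum/LIF. The window of Hoxb8 (chr11:96142969-96143268, plus strand), chosen after its values were seen, is shown because 9 of the 28 Hox windows (32.1%) held TTTATNG, a form of the motif recognized by CDX proteins, on either strand, against 7.47% of all windows and 10.4% of those of the genes called higher. It holds 3 places with TTTATNG, in capitals, a number reached by 0.0260% of all windows. Because the window was picked from the 28 with its values known, that share is a description of this window only. Hoxb8 was counted 1 and 38 times and reached 1 CPM in F/A Cripto KO alone, as did other genes among the 9. A match in these bases is no sign of binding.
Hoxb8: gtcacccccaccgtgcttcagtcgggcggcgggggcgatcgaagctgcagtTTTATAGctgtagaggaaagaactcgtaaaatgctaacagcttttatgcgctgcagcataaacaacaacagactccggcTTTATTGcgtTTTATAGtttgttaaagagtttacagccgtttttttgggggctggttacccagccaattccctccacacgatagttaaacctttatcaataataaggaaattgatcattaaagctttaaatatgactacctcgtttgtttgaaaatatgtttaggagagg

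Retinoic acid genes gave 4 calls higher and 2 lower of 14. Of the enzymes that degrade retinoic acid, Cyp26a1 was counted 4821 and 1740 times, 2.81-fold (2.61 to 3.02) lower, and Cyp26c1 77 and 20 times, 3.38-fold (1.74 to 7.33) lower. A further such enzyme, Cyp26b1, was called higher on 11 and 46 counts, so these enzymes went both ways. Aldh1a2, which makes retinoic acid, was counted 319 and 1080 times, 3.29-fold (2.86 to 3.79) higher. The binding proteins Crabp1 and Crabp2 were counted 110 and 1072 times and 105 and 506 times. Their ratios were 9.56 (7.78 to 11.8) and 4.64 (3.68 to 5.89). In serum/LIF 0 of the 14 genes were called and the median log2 ratio was -0.49, against 0.65 in F/A. Cyp26a1 and Cyp26b1 fall outside the rule for named genes and were chosen after their values were seen.

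Endoderm markers gave calls in 1 direction. Of 17 measured genes of definitive and visceral endoderm, 6 were called lower and 0 higher, with a median log2 ratio of -0.77 and 3 members above a ratio of 1. Trh, counted 2967 and 848 times, was 3.60-fold (3.25 to 3.99) lower, Hhex, counted 369 and 134 times, 2.84-fold (2.19 to 3.75) lower, and Sox17, counted 688 and 270 times, 2.60-fold (2.16 to 3.15) lower. In serum/LIF, Hhex was counted 95 and 80 times and Sox17 10 and 9 times. Trh was counted 2582 and 3485 times there, so its counts are not particular to endoderm in these cells. Foxa2, a pioneer factor of endoderm and midline, was counted 1360 and 900 times, a ratio of 0.645 (0.579 to 0.718), and was not called. Among 16 streak and early mesoderm factors, 4 were called lower and 2 higher, 1 of the 2 having reached 1 CPM in F/A Cripto KO alone. T, the factor brachyury, was counted 8748 and 5598 times, a ratio of 0.598 (0.573 to 0.624), and was not called.

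Genes of the formative and primed epiblast gave 4 calls lower and 1 higher of 14. Fgf5, a ligand induced in the postimplantation epiblast, was counted 2206 and 394 times, 5.83-fold (5.03 to 6.77) lower. Otx2, an anterior homeobox factor, was counted 2375 and 678 times, 3.57-fold (3.19 to 4.02) lower, while the de novo methyltransferase gene Dnmt3b was counted 3515 and 2384 times, a ratio of 0.685 (0.641 to 0.732). Of 15 naive pluripotency genes, 2 were called lower and 0 higher. Nanog was counted 259 and 126 times, 2.08-fold (1.57 to 2.78) lower, and Pou5f1 1810 and 1216 times, a ratio of 0.660 (0.601 to 0.724).

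**Figure D5:**
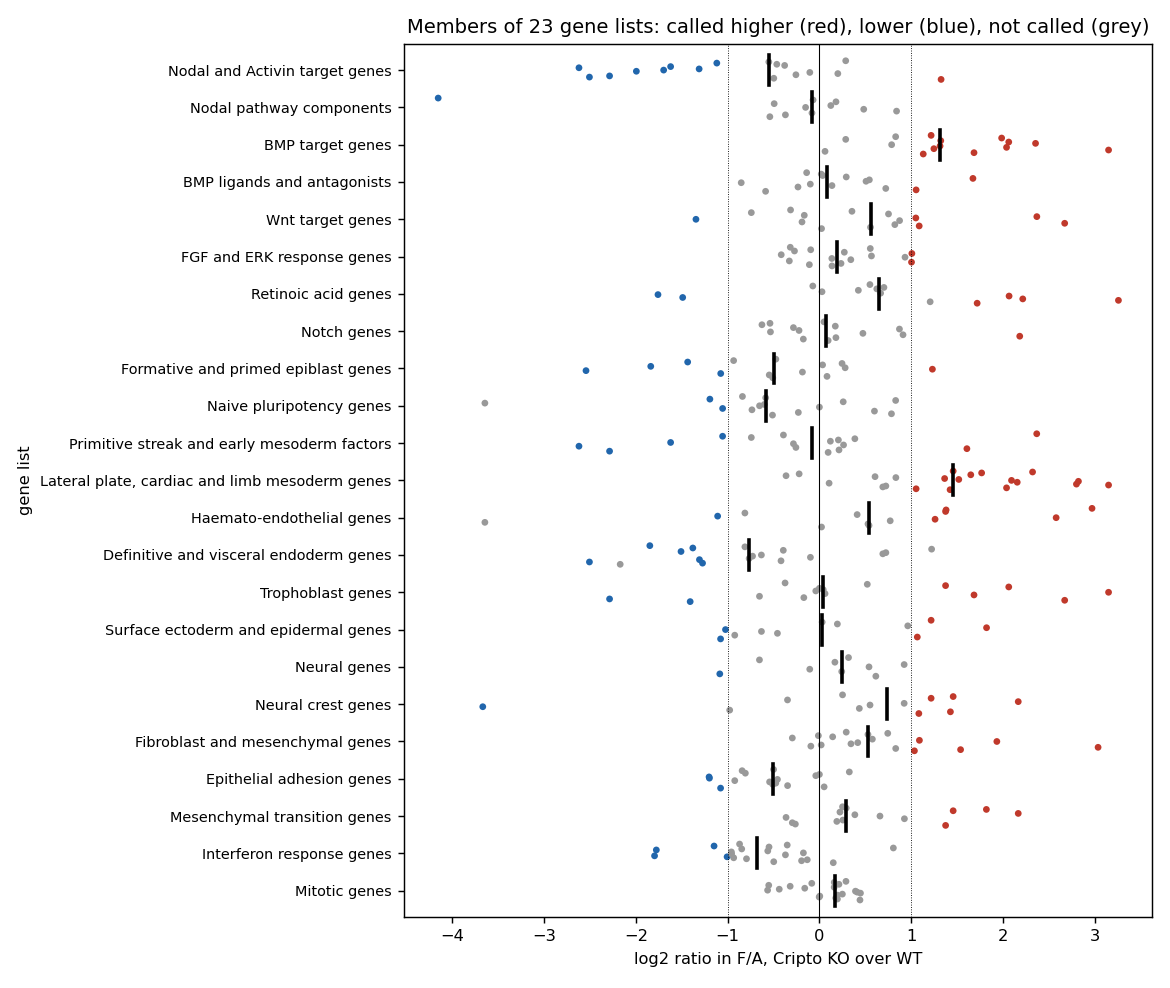
Log2 ratio of Cripto KO over WT in F/A (horizontal axis) of the measured members of 23 gene lists (vertical axis), with black bars at the list medians and dotted lines at 2-fold. BMP targets and lateral plate mesoderm genes have medians of 1.31 and 1.46, and Nodal and Activin targets and endoderm genes of -0.55 and -0.77. Some genes are in several lists.

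Trophoblast genes did not move in 1 direction. Of 15 measured, 5 were called higher and 2 lower, and the median log2 ratio was 0.04. The 5 were Hand1, Cdx2, Msx2, Gata2 and Plac1, of which the first 4 also mark mesoderm or other tissues. Eomes, counted 1963 and 422 times and 4.88-fold (4.23 to 5.65) lower, was among the 2 called lower and had the lowest ratio of the list. It too marks other tissues. Plac1 rested on 19 and 48 counts. The placental markers Elf5, Tpbpa, Prl3d1, Prl2c2 and Gcm1 did not pass the filter of the normalized table, and none had more than 4 counts in the F/A Cripto KO library. Neural genes gave 1 call lower and 0 higher of 9, neural crest genes 5 higher and 1 lower of 12, and surface ectoderm genes 3 higher and 2 lower of 11. Among the 5 neural crest genes called higher, 1 reached 1 CPM in F/A Cripto KO alone.

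Among epithelial adhesion genes the called ratios were small. Of 16 measured, 3 were called lower and 0 higher, with a median log2 ratio of -0.50, and -0.60 after the length trend was subtracted. Cdh1, the adhesion molecule E-cadherin, was counted 16176 and 8942 times, 2.11-fold (2.04 to 2.18) lower. The splicing factors of epithelia Esrp1 and Esrp2 were counted 2099 and 940 times and 356 and 160 times. They were 2.29-fold (2.07 to 2.54) and 2.30-fold (1.80 to 2.97) lower. Cldn6, a tight junction claudin, was counted 4764 and 3358 times, a ratio of 0.703 (0.665 to 0.744). Lama5, a laminin chain of basement membranes, was counted 18254 and 9602 times, 2.17-fold (2.10 to 2.24) lower.

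Wnt targets gave 4 calls higher (26.7%) and 1 lower (6.67%) of 15, with a median log2 ratio of 0.56, or 0.37 after the length trend was subtracted. Notum, an extracellular Wnt inactivator, was counted 29 and 156 times in F/A, 5.16-fold (3.33 to 8.21) higher, and 322 and 140 times in serum/LIF, where it was called lower. Lgr5, a receptor for R-spondins and the Wnt target called lower, was counted 258 and 100 times, 2.54-fold (1.87 to 3.51) lower. Ccnd1, the G1 cyclin D1, was counted 1365 and 2846 times, 2.12-fold (1.97 to 2.29) higher. Fzd5, a Wnt receptor, was among the 15 lowest ratios, counted 3999 and 630 times, 6.58-fold (5.86 to 7.40) lower. FGF and ERK response genes gave 2 calls higher of 16, Notch genes 1 higher of 14, and Hedgehog genes 2 higher and 1 lower of 12. Over all genes, 3.18% were called higher and 3.57% lower. The called Notch gene reached 1 CPM in F/A Cripto KO alone, so it had to be higher there. Interferon response genes gave 4 calls lower (20%) and 0 higher of 20 and had a median log2 ratio of -0.68, with Oasl2 counted 876 and 260 times and Ifit3 269 and 76 times.

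Of the 55 lists, 15 held 0 called genes, among them DNA replication, mitosis, p53 targets, cholesterol synthesis, the amino acid response, DNA methylation and Polycomb genes. These named lists held 14 to 24 measured genes, and 6.75% of all genes were called. In lists of this size, 0 calls therefore do not set a list apart from all genes. Some lists of short transcripts held few calls, and their medians were not all positive. Mitochondrially encoded genes, of median length 870.5 nt, had a median log2 ratio of -0.03 and 0 calls of 12. The sign of that median depends on the scaling, since it was 0.0882 by CPM, 0.12 with TMM and 0.11 with DESeq2 factors. Complex I subunits, of median length 642 nt, had a median log2 ratio of 0.51, which was 0.33 after the length trend was subtracted. Cytosolic ribosomal protein genes, of median length 658 nt, had a median of 0.54, and 0.37 after subtraction, with 2 of 83 called. The part of transcript length in these medians beyond that subtraction was not tested. Slc16a1, a lactate transporter, was the only called member of the glycolysis list, counted 19260 and 9076 times, 2.41-fold (2.34 to 2.49) lower. It does not stand for that list, in which 14 of 23 measured genes lay above a ratio of 1 and 9 below. The list median was 0.16, and -0.046 after the length trend was subtracted. Ldha, of the same list, was counted 9966 and 17174 times, a ratio of 1.59 (1.54 to 1.63), and was not called.

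The remaining genes of the 15 lowest ratios were of mixed function. Lars2, the mitochondrial leucyl-tRNA synthetase, was counted 15635 and 3008 times in F/A, 5.79-fold (5.49 to 6.11) lower, and 2194 and 1890 times in serum/LIF. Here the WT F/A library was the one that stood apart. Irs4, an insulin receptor substrate on the X chromosome, was counted 359 and 56 times in F/A, 6.21-fold (4.22 to 9.48) lower, and 19 and 41 times in serum/LIF, where it was called higher. Jakmip1, a microtubule-associated protein, was counted 284 and 34 times, 7.63-fold (4.68 to 13.3) lower, and 555 and 250 times in serum/LIF, where it was called lower as well.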

How the data were processed

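RNA of 4 libraries, 1 for each genotype and culture, was sequenced in paired ends on an Illumina HiSeq. Per the labels and the study's methods, the authors aligned reads with TopHat2 2.0.13 to mm9 (NCBIM37) with Ensembl release 67 and deposited counts from HTSeq 0.6.1p1 in mode intersection-nonempty. The strand option is not given in the sources used here, so genes that overlap on opposite strands cannot be told apart. The authors then made the second deposited table, a quantile-normalized signal (preprocessCore 1.28.0), and kept 15462 genes by filtering on proportions with a CPM limit of 1 (NOISeq 2.8.0), in RNASeqGUI 0.99.3. Quantile normalization of the deposited counts gave back 100% of these values within 1e-06.

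Ratios were taken between normalized values, with 0 replaced by 0.5. Exact (Clopper-Pearson) 95% intervals came from raw counts, those of F/A Cripto KO halved, and a gene was called at 2-fold with an interval beyond 1. A count of 0 allows up to 3 counts, or 6 deposited counts in F/A Cripto KO, 0.381 CPM there and 0.197 CPM in WT. Run on simulated counts for the F/A comparison over 15462 genes, these steps recovered 200 of 200 genes changed 3- or 4-fold and called 62 unchanged genes. The changed genes were drawn from those with a mean of at least 50 raw counts, and counting noise alone was simulated. Recovery of 2-fold changes, of genes with fewer counts, and under variation between cultures was not tested. Gene names and lengths (median of a gene's transcripts) came from the GENCODE annotation of Ensembl release 65 on the same build, for 15424 genes (99.8%). The length trend is a running median of 1001 genes, drawn from genes whose normalized values averaged above 200. The members and lists were chosen with earlier results of these data known. Some genes are in several lists, such as Hand1 among BMP targets, lateral plate and trophoblast genes. Cer1 is among both Nodal targets and endoderm genes, so the calls of different lists are not independent. Named genes were Tdgf1, the 15 highest and 15 lowest ratios among called genes with at least 200 counts in the higher library, up to 4 members of each list with the largest ratio and at least 50 such counts, and genes the study names. Rtl1, Dio3, Evl, Begain, H19, Malat1, Neat1, Nodal, Lefty1, Lefty2, Pmepa1, Ankrd1, Id1, Id3, Id4, Smad6, Gata2, Gdf6, Hoxb8, Hoxc13, Plac1, Cyp26a1 and Cyp26b1 fall outside this rule and were chosen after their values were seen, to fill in the lists they belong to. Python 3.11.15, scipy 1.17.1, edgeR 4.0.16 (TMM factors) and DESeq2 1.42.0 (size factors) were used.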

Additional observations from a re-analysis of the deposited data

Results flagged for a closer look

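Some genes and lists had ratios of opposite sign in F/A and serum/LIF. Each culture has 1 library of each genotype, so the difference between the cultures was not tested. Among the genes named, 6 were called in both cultures in opposite directions. The log2 ratio of Irs4 was -2.63 in F/A and 1.45 in serum/LIF, and that of Notum was 2.37 and -1.02. The Nodal antagonists Lefty1 and Lefty2 had log2 ratios of -1.70 and -1.31 in F/A and of 1.82 and 1.57 in serum/LIF. The interferon response genes Ifit3 and Oasl2 had log2 ratios of -1.80 and -1.78 in F/A and of 1.55 and 1.57 in serum/LIF, the latter resting on 8 to 22 counts. Of 55 lists, 7 had medians of opposite sign in the cultures with both at least 0.25 in size. Nodal and Activin target genes had a median log2 ratio of -0.55 in F/A and 0.30 in serum/LIF, interferon response genes -0.68 and 0.34, and cluster histone genes -0.26 and 0.58 over 10 measured members. Retinoic acid genes had medians of 0.65 and -0.49. Complex I subunits had medians of 0.51 and -0.28, complex IV subunits 0.46 and -0.39, and complex V subunits 0.50 and -0.31. These are lists of short transcripts, and the shortest eighth of the genes had medians of 0.17 in F/A and -0.06 in serum/LIF. With the length trend subtracted, the F/A medians of complexes I, IV and V were 0.33, 0.26 and 0.31. The part of transcript length in the difference between the cultures was not tested.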

How the results depend on the processing

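The number of genes called in F/A stayed within 1.5 times of 491 higher and 552 lower under raw CPM, TMM factors, DESeq2 size factors, halving the F/A Cripto KO counts before quantile normalization, adding 5 to every value, subtracting the length trend and using coding genes alone. It moved past that with stricter or looser rules. A mean raw count of at least 50 gave 252 higher and 353 lower, a counting interval wholly beyond 2-fold 191 and 135, and a fold of at least 3 gave 238 and 182. The fold alone gave 880 lower, and the unfiltered raw table in CPM 845 lower. The decline with length was -0.47 on the log2 scale from the shortest to the longest eighth and moved by less than 1.5 times in all 5 alternatives.

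Of 330 recomputed list medians, 14 moved by more than the members' counting error. With the length trend subtracted, medians became 0.18 for imprinted, -0.60 for epithelial adhesion, -0.046 for glycolysis, 0.24 for amino acid response, 0.061 for mitotic, 0.37 for cytosolic ribosomal protein, 0.23 for Sm and LSm and -0.20 for mitochondrially encoded genes, and 0.26 and 0.31 for complexes IV and V. The mitochondrially encoded median, -0.03, was 0.0882 by CPM, 0.12 with TMM and 0.11 with DESeq2 factors. Adding 5 gave -1.76 for Y chromosome genes. Of 1404 recomputed ratios of named genes, 112 moved past their counting interval, 70 of them with the length trend subtracted, and 0 called ratios changed sign. No paired analysis was possible because each condition had 1 library, and for the same reason no replicate could be left out. Depth limits the low genes, as the F/A Cripto KO library holds about the information of its halved counts.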
